A study of Homo sapiens with 24 samples.

Results

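The 10 genes described here encode parts of the contractile apparatus of muscle and of the actin cytoskeleton, together with 1 heart hormone. They were taken by gene symbol from a table of 63677 genes measured in human liver cancer cell lines. MYL9, MYH3, ACTC1, NPPB and CAPG were chosen by their log2 changes against DPBS in these same libraries, which were among the highest of all genes, so their values are a description and carry no test. TAGLN, ACTA2, CNN1, TPM1 and TPM2 were added as further muscle genes, and tests are given for these 5 alone. All 10 genes passed the filter on low values (at least 0.5 RPKM in at least 2 libraries), as did 19377 genes in all.

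HepG2, SNU398 and SNU475 are established human hepatocellular carcinoma cell lines, all labelled wild type. Each line received vehicle (DPBS, a phosphate-buffered saline), decitabine at 100 nM, GSK-126 at 500 nM, or both drugs at those doses, daily for 3 days. Decitabine is a nucleoside analogue that traps DNA methyltransferases and so lowers DNA methylation. GSK-126 inhibits EZH2, the enzyme that places the repressive H3K27me3 mark. HepG2 and SNU398 were harvested on day 14 and SNU475 on day 21, so line and harvest day cannot be told apart for SNU475. Every group (12 in all) was sequenced as replicate A and replicate B, and the labels do not say whether these came from separate cultures. The p-values therefore measure only the spread between libraries, which may be technical. Where groups are said not to overlap, or libraries to stand above DPBS, the share of all genes that do so is not given. For the 5 picked genes, a place above DPBS follows in part from the choice.

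In muscle, myosin heads pull on actin filaments, and tropomyosins, calponin and transgelin bind along those filaments. Smooth muscle and myofibroblasts use a related set of proteins, and many of their genes are switched on by the serum response factor (SRF) with its myocardin-related cofactors, which bind the CArG box, a short promoter motif. In the liver, smooth-muscle alpha-actin is best known as a marker of activated stellate cells, whereas hepatocytes hold little of it. In bulk RNA a change in the share of cells and a change in RNA per cell cannot be told apart.

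The level unit is scaled RPKM, that is reads per kilobase of gene and per unit of sequencing depth (RPKM), scaled so that the libraries' typical gene is level. Depth ranged from 32.605 to 60.367 megareads per library, with 57.2% to 69.5% of reads in genes, and between 25476 and 29896 genes above 0 per library. The hepatocyte label held for HepG2, where all 12 hepatocyte markers were above 1 scaled RPKM and albumin (ALB) stood at 5470 in DPBS. In SNU398 and SNU475, ALB was 1.37 and 12.6 in DPBS. COL3A1 and VIM were the highest of 12 stellate-cell and fibroblast markers in both. They were 284 and 327 in SNU398 and 241 and 176 in SNU475, against 0.109 and 0.18 in HepG2. Only 6 of the 12 were above 1 in SNU398 DPBS, and 6 in SNU475 DPBS. COL1A2 and PDGFRA were 0.104 and 0.166 in SNU398 and 0.193 and 0.00671 in SNU475. In SNU398, PDGFRB (0.0303) and S100A4 (0.231) were below their HepG2 levels (0.651 and 1.41). The endothelial marker PECAM1 was listed at 0 in the DPBS libraries of all 3 lines, and the summed level of the 8 endothelial markers stayed between 0.2 and 1.36 in every library. Among the 8 immune-cell markers, the leukocyte gene PTPRC was listed at 0 in HepG2 DPBS and was 0.54 and 0.119 in SNU398 and SNU475. The HepG2 sum of 438 to 452 in DPBS was almost entirely lysozyme (LYZ, 444). Sums in DPBS were 0.695 to 0.717 in SNU398 and 12.9 to 13.7 in SNU475, the latter mostly CD14 (12.1). With both drugs CD14 fell to 3.49 in SNU475 and rose from 0.955 to 4.56 in HepG2.

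Some libraries held low levels of genes that were high in another line. The 12 hepatocyte markers summed to 53.3 in SNU398 decitabine replicate A and to 0.947 in replicate B, which is 0.472% and 0.00838% of their sum in HepG2, and all 12 were higher in A. In SNU475 DPBS they summed to 78.9 in replicate A and 17.1 in replicate B. Of these sums, FGB was 13.4 ± 0.182 (SD, n = 2), nearly alike in both replicates, and it fell to 0.319 with both drugs (log2 change −4.08). Whether SNU475 itself expressed FGB was not tested. A set of 18 genes that were high in SNU475 and near 0 in SNU398 DPBS, chosen after their values were seen, stood at 0.276% of its SNU475 level in SNU398 GSK-126 replicate A and at 0.113% in replicate B, and all 18 were higher in A. For the 14 such genes of HepG2, the combination libraries held 3.64% in A and 3.88% in B, with 13 of the 14 higher in B. In HepG2 these genes stood at 0.0919% and 0.0813% in DPBS and 1.68% and 1.7% with decitabine. In SNU398 they stood at 0.104% and 0.0753% in DPBS and 0.808% and 0.942% with both drugs. They were chosen for a low DPBS level in the same line, so a higher level with treatment follows in part from the choice. Treated groups also differed from one another in both replicates alike, with HepG2 GSK-126 at 0.0799% and 0.117%. The results these libraries touch are given with both replicates below, and the part of such reads in them was not tested.

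Promoter sequence was available in a RefSeq-derived table (GRCh38.p14) for 6 of the 10 genes, ACTC1, CAPG, ACTA2, CNN1, TPM1 and TPM2, in 13 windows of the 250 bases before an annotated start. The CArG box was searched in its exact form only: CC, 6 of A or T, then GG. Forms that differ from it by a base were not counted, such as ccctatatgg and ccttgtttgg in the second ACTA2 window. CAPG was picked for its rise and was higher with decitabine in all 3 lines. The TPM1 window is richest in CpG, the dinucleotide that DNA methyltransferases modify. TPM1 rose with decitabine in HepG2 and SNU475 (0.57 and 0.75) and did not pass the test in SNU398 (0.01). A link between CpG number and these changes was not tested. Shown are the first windows of ACTC1, which holds the one exact match, of CAPG and of TPM1. All run 5′ to 3′ on the gene's strand in lower case, with the CArG box in capitals.
ACTC1, chr15:34795550-34795799, minus strand: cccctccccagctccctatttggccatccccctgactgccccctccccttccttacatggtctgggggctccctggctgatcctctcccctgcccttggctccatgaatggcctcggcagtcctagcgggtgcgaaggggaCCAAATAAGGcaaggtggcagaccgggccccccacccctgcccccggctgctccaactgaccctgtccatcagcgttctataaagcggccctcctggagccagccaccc
CAPG, chr2:85414017-85414266, minus strand: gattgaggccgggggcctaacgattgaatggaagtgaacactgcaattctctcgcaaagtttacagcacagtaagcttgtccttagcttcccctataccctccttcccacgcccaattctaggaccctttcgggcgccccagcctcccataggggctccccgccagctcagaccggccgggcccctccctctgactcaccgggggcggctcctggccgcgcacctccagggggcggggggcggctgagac
TPM1, chr15:63048239-63048488, plus strand: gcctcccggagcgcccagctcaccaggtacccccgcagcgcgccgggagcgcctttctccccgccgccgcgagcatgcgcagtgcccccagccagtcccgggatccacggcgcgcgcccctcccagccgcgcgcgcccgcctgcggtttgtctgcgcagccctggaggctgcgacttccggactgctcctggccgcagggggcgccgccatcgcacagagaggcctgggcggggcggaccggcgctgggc
The CArG box of ACTC1 began 109 bases before the start, and the letters TATAAA stood 31 bases before it. Searched on both strands, the CArG box occurred in 1.16%, TATAAA in 10.7% and CATTCC, the MCAT motif, in 11.9% of 35116 such windows in the table; the motifs searched do not overlap in the ACTC1 window. CATTCC was found 174 bases before the start of the third ACTC1 window and 183 bases before the start of the second ACTA2 window. In order along each gene, CpG numbered 7, 5 and 2 in the ACTC1 windows and 15, 4, 7 and 1 in those of CAPG. The TPM1 window held 34, the ACTA2 windows 17 and 6, the CNN1 window 6, and the TPM2 windows 19 and 25. The median of all windows was 11, and 52.2% held at least 10.

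MYL9 encodes the regulatory light chain of smooth-muscle and non-muscle myosin II (hg19 chromosome 20, 35169887 to 35178228). In HepG2 its level was 3.85 and 3.43 in the DPBS libraries, 27.9 and 27 with decitabine, 4.48 and 4.61 with GSK-126, and 61.9 and 59.3 with both drugs. In SNU398 it was 0.239 and 0.153 in DPBS, 16.2 and 15.4 with decitabine, 1.16 and 0.238 with GSK-126, and 13.4 and 15.3 with both. In SNU475 it was already 293 and 317 in DPBS, and reached 632 and 636 with decitabine, 502 and 510 with GSK-126, and 676 and 724 with both. Every decitabine and combination library thus stood above the DPBS libraries of its line. The mean with both drugs was 16.7, 73.3 and 2.29 times that in DPBS in HepG2, SNU398 and SNU475, on 394, 32 and 39587 DPBS reads. With GSK-126 in SNU398, replicate B did not exceed the higher DPBS library, and the mean of 0.697 ± 0.649 (SD, n = 2) came from replicate A, the library in which all 18 of the SNU475-high genes were higher. By log2 change MYL9 was the highest of the 19377 genes in SNU398 under decitabine and under both drugs, and 18th in HepG2 under both.

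MYH3 encodes the embryonic heavy chain of skeletal-muscle myosin (chromosome 17, 10531843 to 10560626). Its level in SNU475 was 0.154 and 0.133 in DPBS, 6.56 and 6.27 with decitabine, 0.232 and 0.281 with GSK-126, and 9.09 and 8.98 with both drugs. The DPBS and decitabine groups did not overlap, and the mean with both drugs was 63 times that in DPBS, on 104 DPBS reads. In HepG2 the libraries lay between 0.266 and 0.564, with the highest pair, 0.528 and 0.564, under GSK-126. In SNU398 they lay between 0.121 and 0.198. MYH3 therefore departed from this low range in the decitabine and combination libraries of SNU475 only among the 12 groups. Of the 75-base stretches of its transcripts, 1.98% also occur in another gene, mostly MYH13.

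ACTC1 encodes cardiac alpha-actin (chromosome 15, 35080297 to 35088340). In SNU475 it was 2.05 and 1.8 in DPBS, 18.5 and 18.3 with decitabine, 9.69 and 9.57 with GSK-126, and 37.4 and 38.3 with both drugs. The 4 groups did not overlap, and each single drug gave a mean 9.55 and 5 times that in DPBS, against 19.7 times with both. HepG2 and SNU398 held at most 15 ACTC1 reads per library. The HepG2 combination had 1 read in replicate A and 15 in replicate B, and SNU398 GSK-126 had 11 reads in replicate A and 0 in replicate B, which allows up to 0.0115 RPKM by counting error (3 reads). In HepG2 combination replicate B, 13 of 14 SNU475-high genes were higher than in replicate A, but their summed levels were close (3.88% and 3.64%). In SNU398 GSK-126 replicate A, all 18 were higher than in replicate B (0.276% and 0.113%). The source of these ACTC1 reads was not tested.

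ACTA2, smooth-muscle alpha-actin (chromosome 10, 90694831 to 90751147), is the actin closest to a stellate-cell marker and was open to testing. In the SNU475 line the level was 47.1 and 49.7 in DPBS, 188 and 189 with decitabine, 185 and 188 with GSK-126, and 188 and 200 with both drugs. All treated libraries stood above DPBS and overlapped one another. It rose by 1.95 (decitabine), 1.93 (GSK-126) and 1.99 (both) on the log2 scale, each with SE 0.05 and limma adjusted p of 2.6e-13, 3.5e-13 and 1.1e-13. In HepG2 it was 7.82 and 7.55 in DPBS and rose with decitabine to 16.1 and 16 (log2 change 1.01) and with both drugs to 20.2 and 19.8 (1.32). In SNU398 it was 2.83 and 2.68 in DPBS and rose with decitabine to 5.6 and 5.24 (0.86) and with both to 5.88 and 6.22 (1.01). GSK-126 alone moved it little in these lines, up by 0.13 in HepG2 and down by 0.13 (−0.13) in SNU398. The HepG2 call was lost without scaling (0.08), without GSK-126 replicate B (0.07) or without DPBS replicate A (0.15) or B (0.10), and the SNU398 call without DPBS replicate A (−0.09) or GSK-126 replicate B (−0.08).

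TAGLN encodes transgelin, an actin-binding protein of smooth muscle (chromosome 11, 117070037 to 117075498). In SNU475 it was 15 and 16.7 in DPBS, 80.1 and 80.8 with decitabine, 46 and 46.4 with GSK-126, and 121 and 124 with both drugs. The 4 groups were fully separated, and the log2 changes were 2.31, 1.51 and 2.91 (SE 0.09 each; limma adjusted p 3.4e-11, 3.6e-09 and 1.8e-12). In HepG2 it was 6.13 and 5.69 in DPBS, 7.08 and 6.94 with decitabine, 9 and 9.63 with GSK-126, and 18.1 and 15.6 with both, with log2 changes of 0.23, 0.61 and 1.43. The decitabine call was lost without any 1 of the 4 libraries compared (0.18 to 0.28) and without scaling (0.14). In SNU398 all libraries lay between 0.473 and 0.952, and none of the 3 treatments passed the test (log2 changes 0.13, −0.16 and 0.22; limma adjusted p 0.29, 0.15 and 0.055). The combination change there passed without DPBS replicate A (0.35) or combination replicate A (0.30), and the GSK-126 change without DPBS replicate B (−0.29), without GSK-126 replicate A (−0.28), without scaling (−0.27) or with quantile normalization (−0.25).

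CNN1 encodes calponin 1, which binds actin in smooth muscle (chromosome 19, 11649532 to 11661138). SNU475 had 9.55 and 9.53 in DPBS, 27.3 and 27.2 with decitabine, 14.6 and 14.3 with GSK-126, and 25 and 25.2 with both. It rose by 1.47, 0.57 and 1.35 on the log2 scale (SE 0.08 each; limma adjusted p 1.3e-09, 3e-05 and 2.1e-09). In HepG2 it was near the floor, with 0.131 and 0.0855 in DPBS, 0.311 and 0.234 with decitabine, 0.251 and 0.26 with GSK-126, and 0.543 and 0.841 with both. These changes passed the test (0.34, 0.31 and 0.96), although the pseudocount of 0.5 shrinks them: the ratio of means with both drugs was 6.4, on 29 DPBS reads. The single-drug calls were lost with quantile normalization (0.02 and 0.20) and when HepG2 was fitted without the other lines. In SNU398 every library was at or below 0.131, and only the change with both drugs passed (0.21, limma adjusted p 0.042), a call lost without any 1 of the 4 libraries and with quantile normalization (0.03).

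TPM1, alpha-tropomyosin (chromosome 15, 63334831 to 63364114), lies along actin filaments in muscle and other cells. In SNU475 it was 24.4 and 24.6 in DPBS, 41.6 and 41.5 with decitabine, 41.3 and 41.2 with GSK-126, and 42.5 and 42.3 with both. As with ACTA2, each drug alone took it to the level of the combination (log2 changes 0.75, 0.74 and 0.78, SE 0.03). In the HepG2 line the level was 5.43 and 5.63 in DPBS, 8.42 and 8.49 with decitabine, 6.55 and 6.97 with GSK-126, and 11.8 and 11.9 with both, and all 3 changes passed (0.57, 0.27 and 1.03). In SNU398 it was 2.83 in both DPBS libraries and rose with both drugs to 3.69 and 3.65 (0.32). Its change of 0.08 with GSK-126 was called but was −0.07 without scaling and 0.01 with quantile normalization, and the call was lost without either DPBS replicate or without GSK-126 replicate A (0.05).

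TPM2, beta-tropomyosin (chromosome 9, 35681989 to 35691017), rose with decitabine and with both drugs in HepG2 and SNU475. In HepG2 it was 0.45 and 0.493 in DPBS, 1.97 in both decitabine libraries, 0.524 and 0.781 with GSK-126, and 4.7 and 4.88 with both, with log2 changes of 1.35, 0.24 and 2.44. The GSK-126 call was lost without GSK-126 replicate B (0.08), without DPBS replicate A (0.21) and with quantile normalization (0.10). Levels in SNU475 were 4.43 and 4.44 in DPBS, 26.5 and 26.1 with decitabine, 3.83 and 3.76 with GSK-126, and 30.5 and 32.2 with both (log2 changes 2.44, −0.20 and 2.69). The fall with GSK-126 was lost without any 1 of its 4 libraries. In SNU398, where its DPBS level of 14.9 and 14.6 was the highest of the 3 lines, it fell with GSK-126 to 10.5 and 10.7 (−0.46, SE 0.07, limma adjusted p 4.9e-05) and did not pass the test with decitabine (0.05) or both drugs (0.01).

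CAPG encodes a gelsolin-family protein that caps actin filament ends (chromosome 2, 85621871 to 85645555). HepG2 had 1.95 and 1.78 in DPBS, 4.99 and 5.17 with decitabine, 2.87 and 2.75 with GSK-126, and 8.16 and 8.19 with both. In SNU398 it was 0.149 and 0.0942 in DPBS, 2.33 and 2.59 with decitabine, 0.582 and 0.506 with GSK-126, and 2.42 and 2.3 with both. In SNU475 it was 0.547 and 0.782 in DPBS, 10.6 and 10.8 with decitabine, 0.528 and 0.368 with GSK-126, and 11.5 and 11.4 with both. Decitabine and combination libraries were above DPBS in all 3 lines, while the GSK-126 libraries were above DPBS in HepG2 and SNU398 and below both DPBS libraries in SNU475. The combination mean was 1.61 times the decitabine mean in HepG2 and 0.96 and 1.07 times it in SNU398 and SNU475.

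NPPB encodes the precursor of B-type natriuretic peptide, the hormone that stretched heart muscle releases (chromosome 1, 11917521 to 11918988). The SNU475 libraries held 1.4 and 1.63 in DPBS, 39.5 and 40.6 with decitabine, 13.2 and 12.1 with GSK-126, and 47.2 and 49.2 with both drugs. The mean with both was 31.7 times that in DPBS, on 114 DPBS reads, and the 4 groups did not overlap. In HepG2 it was 0.154 and 0.166 in DPBS, 0.891 and 0.992 with decitabine, 1.03 and 1.14 with GSK-126, and 2.4 and 1.99 with both, a ratio of means of 13.7 on 10 DPBS reads. SNU398 libraries held 0 to 3 reads, and a library with 0 reads allows up to 0.0765 to 0.0998 RPKM by counting error (3 reads). No fold is given for SNU398.

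**Figure D1:**
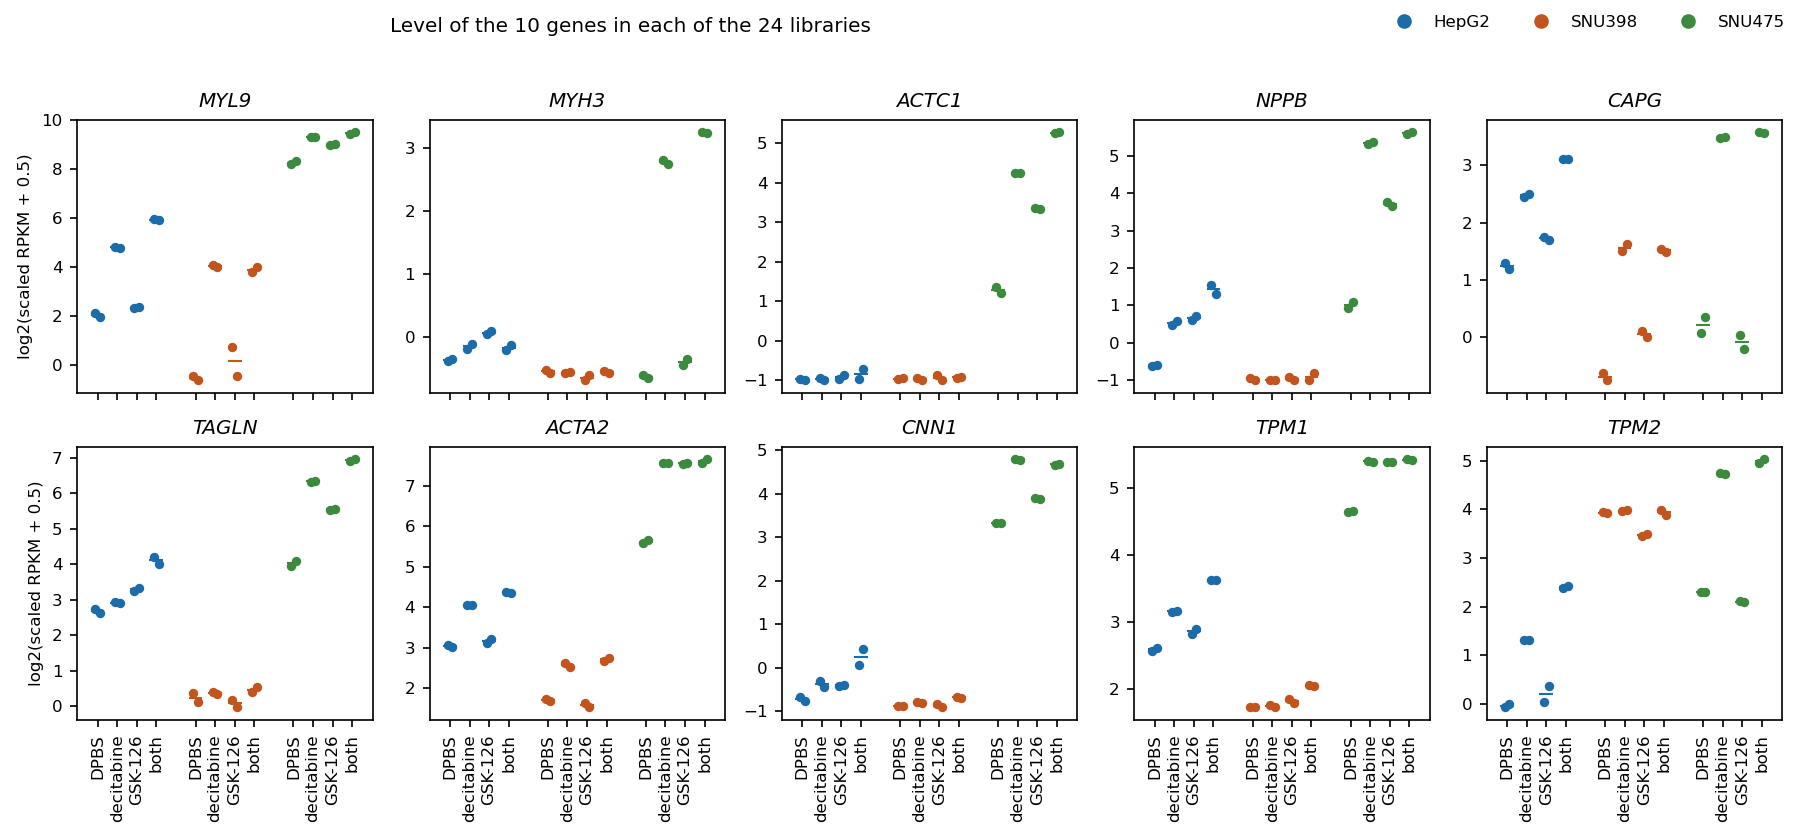
Level of each of the 10 genes in the 24 libraries, as log2(scaled RPKM + 0.5) on the vertical axis, by line (colour) and treatment; points are single libraries and short lines the mean of replicates A and B. ACTA2 and TPM1 reach one level under all 3 treatments in SNU475, while MYH3 and ACTC1 leave the floor in SNU475 alone.

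Over the 5 tested genes and the 9 comparisons with DPBS, 34 of 45 changes were called higher and 3 lower (limma adjusted p under 0.05). In HepG2, all 5 rose under decitabine, under GSK-126 and under both drugs, where 35.9%, 31.0% and 40.6% of all tested genes were called higher and 18.3%, 21.7% and 25.9% lower. Several of these calls were lost under other settings, as given above: TAGLN with decitabine, ACTA2 and TPM2 with GSK-126, and CNN1 with each single drug. In SNU398, decitabine raised ACTA2 (background 23.4% higher, 15.4% lower), GSK-126 raised TPM1 and lowered ACTA2 and TPM2 (30.0% higher and 22.4% lower), and both drugs raised ACTA2, CNN1 and TPM1 (28.9% higher, 18.4% lower). In SNU475, all 5 rose under decitabine (24.2% higher, 27.3% lower) and under both drugs (25.3% higher, 29.6% lower), and under GSK-126 4 rose and TPM2 fell (21.5% higher, 28.5% lower). With so many genes called, a call alone says little, and the sizes separate the lines: the median log2 change of all genes was between −0.02 and 0.08 in these 9 comparisons. The share of higher calls among all calls depended on scaling by over 10 percentage points in several of them: it was 66.3% for HepG2 decitabine (53.3% without scaling, 46.3% with quantile normalization), 61% for HepG2 with both drugs (47.9% with quantile normalization), 60.4% and 61% for SNU398 decitabine and both drugs (49.1% and 49.2% with quantile normalization) and 57.3% for SNU398 GSK-126 (38.3% without scaling).

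**Figure D2:**
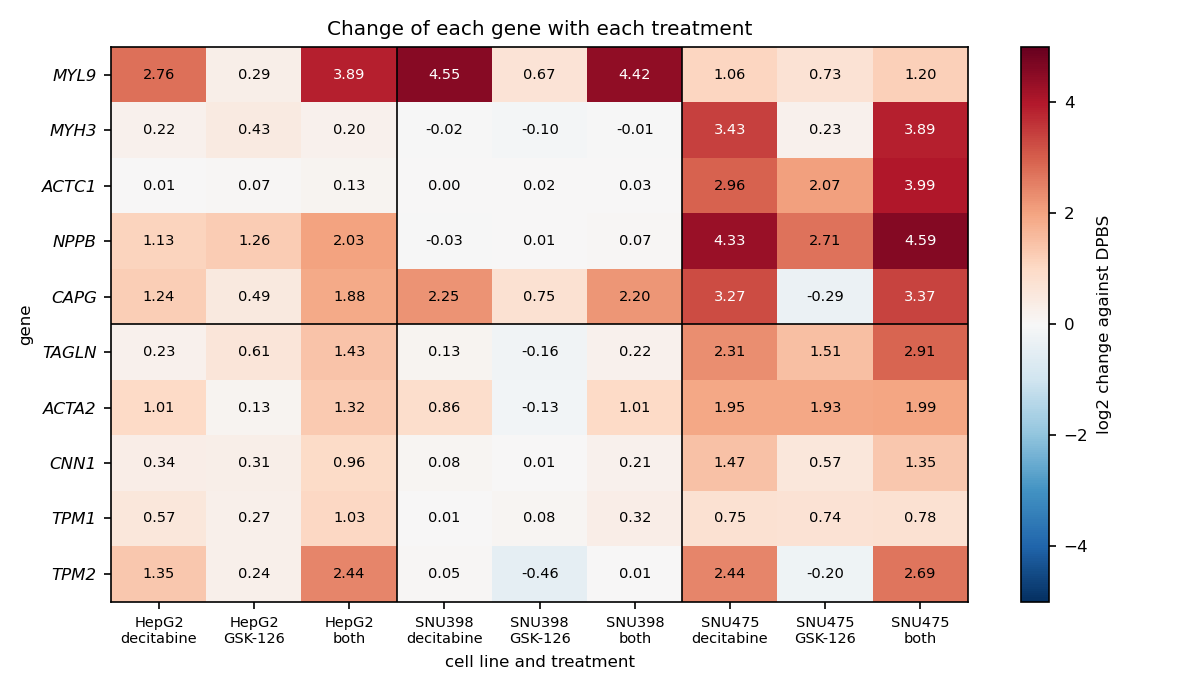
Log2 change against DPBS of each gene (rows) in each line and treatment (columns), on the log2(scaled RPKM + 0.5) scale; rows above the horizontal line are the 5 genes picked for their increase and carry no test. HepG2 and SNU475 columns are mostly red, and SNU398 shows large values for MYL9, CAPG and ACTA2 with TPM2 at −0.46 under GSK-126.

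The series title speaks of synergy between the inhibitors, so the combination was compared with each single drug. In HepG2, all 5 tested genes were higher with both drugs than with decitabine (30.0% of all genes called higher, 25.8% lower) and than with GSK-126 (36.9% higher, 28.8% lower). TAGLN and TPM2 gained most over decitabine there, 1.20 and 1.10 on the log2 scale (SE 0.09 and 0.07; limma adjusted p 4.2e-08 and 7.6e-09). In SNU398, ACTA2 (0.15) and TPM1 (0.32) were higher than with decitabine (12.5% higher, 8.07% lower), and all 5 were higher than with GSK-126 (26.6% higher, 23.5% lower); the ACTA2 call was lost without decitabine replicate B or either combination replicate (0.10, 0.18 and 0.11), and that of CNN1 over GSK-126 (0.21) without any 1 of the 4 libraries. In SNU475, TAGLN (0.60) and TPM2 (0.25) were higher than with decitabine (7.39% higher, 10.9% lower), and TAGLN, CNN1 and TPM2 (1.40, 0.78 and 2.89) than with GSK-126 (18.2% higher, 17.7% lower). The TPM2 gain over decitabine was lost without either decitabine replicate or without combination replicate B (0.21). For ACTA2 in SNU475 the difference from decitabine was 0.04 (95% interval −0.06 to 0.14) and from GSK-126 0.06 (−0.05 to 0.16), and for TPM1 0.03 (−0.03 to 0.09) and 0.04 (−0.02 to 0.10); with quantile normalization the ACTA2 difference from GSK-126 was called (0.15). None of the 30 differences was called lower by limma, with 0 also at an unadjusted p under 0.05; limma-voom on read numbers and a model of the SNU475 libraries alone each called 1, CNN1 in SNU475 against decitabine (−0.12). The share of higher calls among all calls in SNU398 against GSK-126 was 53.2%, and 72.1% without scaling.

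For 4 of the 5 tested genes, the interaction of the drugs was positive in HepG2 and negative in SNU475. The interaction is the log2 change with both drugs minus the sum of the log2 changes with each drug, on the log2(scaled RPKM + 0.5) scale. It is near 0 where the folds multiply only for genes well above the pseudocount: HepG2 CNN1 was 1.08 times the product of its RPKM folds, although its interaction was called. In HepG2 it was positive and called for all 5 tested genes (background 25.1% higher, 27.9% lower): TPM2 0.86, TAGLN 0.59, CNN1 0.30, TPM1 0.20 and ACTA2 0.18. The ACTA2 call was lost without DPBS replicate A, either decitabine replicate, GSK-126 replicate A or combination replicate A, and the CNN1 call without DPBS replicate A, decitabine replicate B, either GSK-126 replicate or combination replicate B (0.12), and with limma-voom (0.09). In SNU398 it was positive for TPM2 (0.41), ACTA2 (0.27) and TPM1 (0.23) (18.4% higher, 22.8% lower, that is 44.7% of calls higher, and 64.7% without scaling); that of TAGLN (0.26) passed without DPBS replicate B (0.38) or GSK-126 replicate A (0.37). In SNU475 it was negative for ACTA2 (−1.89), TAGLN (−0.91), TPM1 (−0.71) and CNN1 (−0.69) and positive for TPM2 (0.45) (19.7% higher, 16.7% lower). The measured ACTA2 mean in SNU475 with both drugs was 194, where adding the single gains to DPBS gives 326 and multiplying the single folds gives 725. For TAGLN there, the measured 122 exceeded the sum of gains, 111, and was 0.522 times the product, 234.

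Among the 5 genes picked for an increase, the combination level was set beside the same reference levels without a test. In HepG2, MYL9 reached 60.6 ± 1.79 (SD, n = 2), against 28.4 for the sum of gains and 34.3 for the product. In SNU475 its 700 ± 34 was below both the sum, 835, and the product. NPPB in SNU475 reached 48.2 ± 1.44, close to the sum of 51.2 and 0.144 times the product. ACTC1 in SNU475 reached 37.9 ± 0.631, above the sum of 26.1 and below the product of 92. CAPG went the other way in SNU475, where its 11.5 lay above the sum of 10.5 and the product of 7.21, and in HepG2 its 8.17 was 1.07 times the product. In HepG2, NPPB at 2.2 was above the sum of 1.87 and 0.344 times the product, and MYH3 at 0.39 was below both, at 0.489 times the product. The picked genes thus had no common side of the product in either line.

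**Figure D3:**
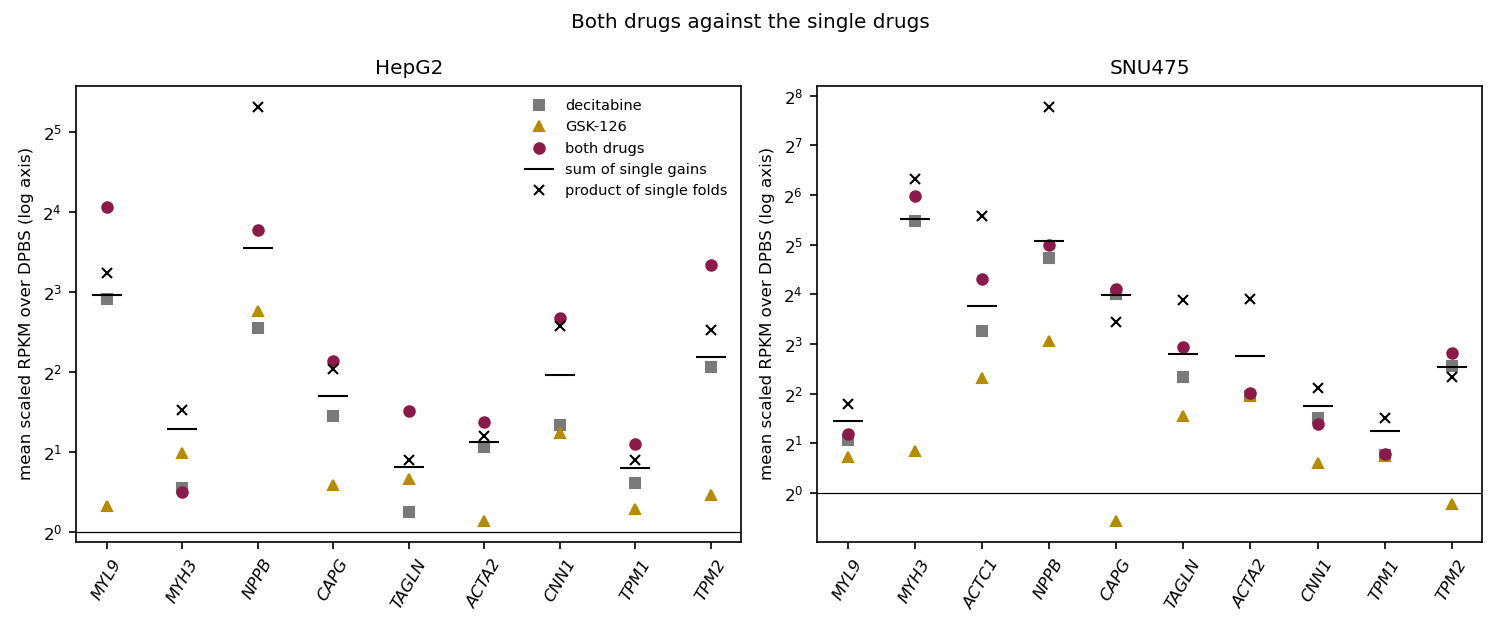
Mean scaled RPKM relative to DPBS (log axis) with decitabine, GSK-126 and both drugs in HepG2 and SNU475, with the level from the sum of single gains (bar) and the product of single folds (cross); n = 2 libraries a group, and ACTC1 is left out for HepG2 because it had at most 15 reads. In HepG2 the MYL9, CAPG, TAGLN, ACTA2, CNN1, TPM1 and TPM2 circles lie above both marks and the MYH3 circle below both. In SNU475 the MYL9, NPPB, ACTA2, CNN1 and TPM1 circles lie below both, NPPB only slightly below the sum, and the CAPG and TPM2 circles above both.

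The combination effect differed between lines for every one of the 5 tested genes and 3 pairs of lines (9 positive, 6 negative; background 58.1%, 64.6% and 56.5% called either way for SNU398 against HepG2, SNU475 against HepG2 and SNU475 against SNU398). It was smaller in SNU398 than in HepG2 for all 5, by 2.44 for TPM2 (−2.44, SE 0.10) and 1.21 for TAGLN (−1.21, SE 0.13). It was larger in SNU475 than in SNU398 for all 5, most for TAGLN (2.69) and TPM2 (2.68). Between SNU475 and HepG2 it was larger in SNU475 for TAGLN (1.48) and ACTA2 (0.67) and smaller for TPM1 (−0.26). The small differences for CNN1 (0.39) and TPM2 (0.25) turned to −0.52 and −0.30 with a pseudocount of 0.1 and to −1.24 and −0.52 with limma-voom on read numbers. For CNN1 the SNU475 minus SNU398 difference of 1.14 also turned, to −0.19, with limma-voom, which gave −0.24 for ACTA2 and −1.04 for CNN1 in SNU398 minus HepG2, neither called. The TPM2 call for SNU475 against HepG2 was also lost without HepG2 DPBS replicate B, HepG2 combination replicate A, either SNU475 DPBS replicate or SNU475 combination replicate B (0.21 to 0.25). Quantile normalization moved the median of all genes in that comparison from −0.11 to 0.03 and the share of higher calls from 38.4% to 50.6%.

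The untreated levels set SNU475 apart. In DPBS, TAGLN, ACTA2, CNN1 and TPM1 were ordered SNU475, HepG2, SNU398, with means in SNU475 of 15.9, 48.4, 9.54 and 24.5. Each was higher in SNU475 than in HepG2, by 1.35, 2.58, 4.05 and 2.05 on the log2 scale, and lower in SNU398 than in HepG2 by −2.44, −1.33 and −0.86 for TAGLN, ACTA2 and TPM1. The CNN1 libraries of HepG2 and SNU398 did not differ by the test (−0.17, limma adjusted p 0.07), but did with a pseudocount of 0.1, with quantile normalization and with limma-voom. TPM2 had another order, SNU398 at 14.8, SNU475 at 4.43 and HepG2 at 0.472. In all, 10 of the 15 differences were called higher and 4 lower, where 76.6%, 79.4% and 78.1% of all genes were called. Leaving out the scaling moved the median of all genes from 0.01 to 0.22 for SNU398 against HepG2 and from 0.04 to 0.15 for SNU475 against HepG2, and the share of higher calls from 52.3% to 64.2% in the former. Of the picked genes, MYL9 was highest in SNU475 and lowest in SNU398, CAPG was highest in HepG2 (1.86) and lowest in SNU398 (0.122), and ACTC1 and NPPB were above 1 in SNU475 only.

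Other genes of the same machinery were counted in lists that leave out the 10. The lists were chosen with earlier results of these data known. Some genes, such as FHL2 and DES, are in more than 1 list, so the counts are a description and not separate evidence. With both drugs, 40.6%, 28.9% and 25.3% of all tested genes were called higher and 25.9%, 18.4% and 29.6% lower in HepG2, SNU398 and SNU475, and each list count below stands beside these shares. Of 21 SRF-dependent cytoskeletal genes, both drugs raised 18 in HepG2, 17 in SNU398 and 16 in SNU475 and lowered 2, 2 and 3, with medians of 0.68, 0.26 and 0.44 beside 0.08, 0.03 and −0.01 over all genes. They included ZYX (zyxin, a focal-adhesion protein; 0.77 in SNU398 and 0.89 in SNU475), TGFB1I1 (1.51 in HepG2), FHL2 (1.56 in HepG2) and DES (desmin; from 3.29 to 7.06 in SNU475). Decitabine alone raised 16, 15 and 18 of the 21 and lowered 2 in each line, where 35.9%, 23.4% and 24.2% of all genes were called higher. GSK-126 alone raised 8, 11 and 14 and lowered 8, 4 and 4 (medians −0.01, 0.14 and 0.20), where 31.0%, 30.0% and 21.5% of all genes were called higher and 21.7%, 22.4% and 28.5% lower. Of 7 tested genes for SRF and its cofactors, both drugs raised 5 in each line and lowered 1, 0 and 1; SRF itself rose by 0.82 and MKL1 by 1.09 in HepG2, FHL1 rose by 2.18 in SNU475, and MKL2 fell there by 0.71 (−0.71).

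Of 20 tested thin-filament genes, both drugs raised 11 in HepG2, 10 in SNU398 and 11 in SNU475 and lowered 3, 2 and 4 (medians 0.26, 0.14 and 0.34). TNNC1, the slow-muscle and cardiac troponin C, rose in all 3 lines (1.74, 0.52 and 2.46), and the smooth-muscle actin gene ACTG2 rose by 1.19 in SNU475. TNNT1, a slow-muscle troponin T, rose in HepG2 (1.65) and fell in SNU398 (−0.49). Of 14 tested myosin and myosin-regulating genes, 9, 7 and 7 rose and 3, 1 and 3 fell. Among them the non-muscle heavy chains MYH14 and MYH9 rose in HepG2 (1.21 and 1.08) and SNU398 (0.82 and 0.48), and the atrial light chain MYL7 rose in SNU475 (from 0.296 to 1.09). Of 6 tested gelsolin-family genes other than CAPG, 5, 4 and 3 rose and 0, 0 and 1 fell, with GSN at 0.71 in HepG2 and 0.58 in SNU398 and SCIN at 1.16 in SNU475.

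Of 11 tested sarcomere and cardiac structural genes, 7, 6 and 4 rose and 0, 0 and 3 fell with both drugs, beside 40.6%, 28.9% and 25.3% of all genes higher and 25.9%, 18.4% and 29.6% lower. ANKRD1, a stretch-responsive cardiac repressor protein, rose in all 3 lines, by 2.89, 3.17 and 2.86, from 6.98, 0.138 and 9.68 to 54.8, 5.26 and 73.6. MYBPC1, a slow-muscle myosin-binding protein, rose in HepG2 (3.69), and MB, myoglobin, fell in SNU475 (−0.80). Of 15 tested cardiac and muscle transcription factors, 3 rose and 2 fell in HepG2, 12 rose and 0 fell in SNU398, and 3 rose and 5 fell in SNU475. The shares of higher calls in HepG2 and SNU475 were thus below those of all genes, and the medians were 0.04, 0.34 and −0.02 beside 0.08, 0.03 and −0.01 over all genes. ISL1 in SNU398 (1.20) and TEAD4 in SNU475 (1.14) changed most among them. Of the 4 tested natriuretic-peptide genes other than NPPB, 1, 2 and 0 rose and 0, 1 and 1 fell, with the receptor gene NPR2 up by 1.49 in HepG2 and the clearance-receptor gene NPR3 down in SNU398 (−0.35) and SNU475 (−0.48).

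**Figure D4:**
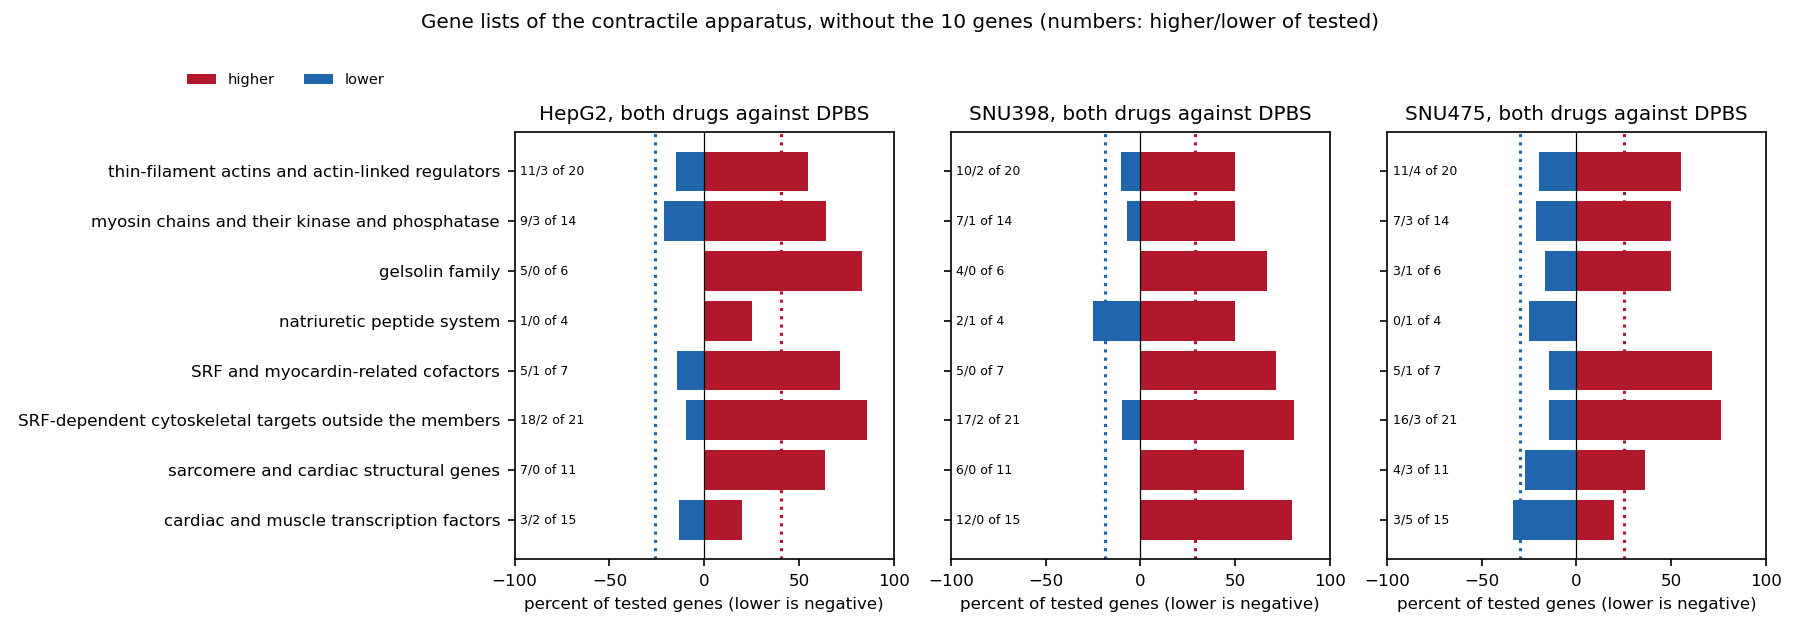
Percent of tested genes called higher (red) or lower (blue, drawn as negative) with both drugs against DPBS in 8 lists without the 10 genes, by line; dotted lines are the percentages over all genes tested. The thin-filament, myosin, gelsolin, SRF-cofactor, SRF-dependent and sarcomere lists exceed the dotted line for higher calls in all 3 lines, the transcription-factor and natriuretic lists in SNU398.

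Markers of other cell types moved as follows with both drugs. Of 11 tested stellate-cell and fibroblast markers, 5, 7 and 10 rose and 0, 2 and 1 fell in HepG2, SNU398 and SNU475, beside 40.6%, 28.9% and 25.3% of all genes called higher. The summed level of the 12 markers in HepG2 was 2.14 to 2.66 in DPBS and 18.2 to 20 with both drugs, of which S100A4 made up most, going from 1.41 to 14.4, and VIM went from 0.18 to 2.4. In SNU398 it was 664 to 677 in DPBS and 641 to 650 with both, and in SNU475 448 to 452 and 498 to 505. COL1A1 rose by 2.16 in SNU398 and 2.11 in SNU475, and S100A4 by 2.98 in HepG2 and 1.83 in SNU475. COL1A2 was listed at 0 in HepG2 GSK-126. The part of other cells in the changes of ACTA2, TAGLN and CNN1 was not tested. Of 12 hepatocyte markers, 1, 0 and 0 rose and 2, 0 and 2 fell. The model shares 1 spread per gene over all 24 libraries, including SNU398 and SNU475 replicates that differed in these markers. In HepG2 the SE was thus 0.32 for APOC3 (215 in DPBS, 120 with both drugs) and 0.15 for TTR. A missing call therefore does not show that a marker was unchanged. The summed level of the 12 markers in HepG2 was 13100 in DPBS and 8310 to 8410 with both drugs. Their median log2 change was −0.40 beside 0.08 over all genes. The part of this fall in the changes of the smooth-muscle genes was not tested. Among the other lists, of 2 tested endothelial markers 1, 0 and 1 rose; of 4 tested immune-cell markers 2, 0 and 1 rose and 0, 1 and 1 fell.

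Several genes overlap neighbours in the annotation, and since the counting strand is not given, reads of overlapping genes cannot be told apart. MYL9 overlaps the antisense gene RP5-977B1.11 (chromosome 20, 35177530 to 35232932), whose mean in HepG2 was 0.171 in DPBS, 1.36 with decitabine and 3.02 with both drugs (log2 change 2.37, limma adjusted p 9.2e-08), and in SNU475 11.7 in DPBS and 32.9 with both (1.45). The second MYL9 antisense gene, RP5-977B1.7, did not pass the test in any of the 9 comparisons with DPBS. Of the genes beside MYL9, DLGAP4, 12847 bases away, rose with both drugs in HepG2 (0.91) and SNU398 (0.41) and did not pass in SNU475 (0.04). TGIF2, 23663 bases away on the other side, fell with both drugs in all 3 lines (−0.19, −0.37 and −0.34). In SNU475, the tested neighbours of ACTC1, GOLGA8A and AQR, were at −0.39 and −0.02, and of NPPB's neighbours NPPA-AS1 passed in HepG2 under decitabine (0.72) while RNU5E-1, a small nuclear RNA gene, fell with both drugs in HepG2 and SNU475 (−2.89 and −2.08). ACTA2 overlaps FAS (0.29, 0.04 and 0.15 with both drugs in HepG2, SNU398 and SNU475), STAMBPL1 (0.19, −0.17 and 0.17) and ACTA2-AS1 (0.11, −0.01 and 0.88), and TAGLN overlaps PCSK7 (0.72, 0.34 and 0.37). ACTC1 overlaps RP11-814P5.1, and TPM1 overlaps RP11-244F12.3 and RP11-244F12.2, all under the filter.

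The likeness of patterns was described by Pearson's r of the log2 means over the 12 groups, which share lines, so that the high DPBS level of SNU475 weighs in every value. ACTA2 and TPM1 were most alike of the 10 (r = 0.99), and TPM2 was least like the others (0.04 with TAGLN to 0.48 with MYH3). The genes most like MYL9 were RBM23 (0.987), MMP24-AS1 (0.982) and IGFBP6 (0.976), and those most like MYH3 EGFLAM (0.988), RP11-274K13.5 (0.978) and HSPB7 (0.977). For ACTC1 they were RP11-227H15.4 (0.998), SLC15A3 (0.997) and RP11-527H14.3 (0.997), and for NPPB IMPDH1P10 (0.980), ATP6V0A4 (0.977) and IL11 (0.976). CAPG was less close to any gene, with PLAC1 (0.952), MAST2 (0.924) and MT-ND1 (0.909), as was TPM2, with TMEM138 (0.961), RAE1 (0.952) and GAPDHP14 (0.952). For ACTA2 they were SYNM (0.990), RP5-977B1.11 (0.984), the antisense gene at MYL9, and KIAA1324 (0.983). TAGLN was nearest to TPST2 (0.987), APOL3 (0.987) and KRT18P29 (0.984), CNN1 to C10orf54, FRMD4A and LUCAT1 (0.997 each), and TPM1 to KRT8P10 (0.997), RP5-1011O1.2 (0.995) and CSF1 (0.994).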

How the data were processed

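Total RNA was depleted of ribosomal RNA and sequenced as stranded single reads, per the labels' protocols. The authors aligned to hg19 with HISAT2 and counted with featureCounts, per the submitters' processing notes; the sources used here do not give versions, annotation or strand setting. The table deposited by the authors holds RPKM per gene. Read numbers were recovered from the RPKM steps: 100% of the low values tried came out whole (within 0.15 reads) in every library.

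RPKM was scaled by median-of-ratios over 8211 genes (factors 0.847 to 1.16). Genes with at least 0.5 RPKM in at least 2 libraries were tested (19377), on log2(scaled RPKM + 0.5), which understates the changes of low genes. One limma model (3.58.1, R 4.3.3; a mean for each of the 12 groups, trend, robust; 12 residual degrees of freedom) was fitted to all 24 libraries. Tests were two-sided, adjusted by Benjamini-Hochberg over all genes in each of 24 comparisons and called under 0.05. No replicate pair agreed within sampling noise. On simulated data for the SNU475 combination against DPBS (18334 genes), changes of 1.25, 1.5, 2 and 4-fold were given to 50 genes each. Of these, 56%, 90%, 100% and 100% were recovered, with 29 of 18134 unchanged genes called. The simulation used one fixed spread for all genes and changed only genes with a DPBS mean of at least 1 RPKM in every line. TAGLN, CNN1 and TPM2 were under that level in a line, so these rates do not cover them. Far more genes were called in the real data. Limits on counts cover counting error only.

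The members and lists were chosen with earlier results of these data known. Named were the 10 genes; per list and line, up to 3 genes with the largest called change under both drugs and at least 1 scaled RPKM in a group; the 3 most similar genes per member; and overlapping and nearest tested genes. Alternatives were other pseudocounts, filters and scalings, limma-voom on the recovered reads, a replicate block, the lines' own libraries, and leaving out each library.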

Additional observations from a re-analysis of the deposited data

Results flagged for a closer look

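The effect of both drugs differed between cell lines for each of the 5 tested genes and each of the 3 pairs of lines (limma adjusted p under 0.05), where 58.1%, 64.6% and 56.5% of all genes were called in the pairs as listed here. For SNU398 minus HepG2 the log2 differences were −1.21 for TAGLN, −0.32 for ACTA2, −0.75 for CNN1, −0.71 for TPM1 and −2.44 for TPM2. For SNU475 minus HepG2 they were 1.48 for TAGLN, 0.67 for ACTA2, 0.39 for CNN1, −0.26 for TPM1 and 0.25 for TPM2. For SNU475 minus SNU398 they were 2.69 for TAGLN, 0.98 for ACTA2, 1.14 for CNN1, 0.45 for TPM1 and 2.68 for TPM2. The sign turned for CNN1 and TPM2 in SNU475 minus HepG2 with pseudocount 0.1 (−0.52 and −0.30) and with limma-voom (−1.24 and −0.52), and for CNN1 in SNU475 minus SNU398 with limma-voom (−0.19). Harvest day and line cannot be told apart in the pairs with SNU475.

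With GSK-126 alone, 4 genes had both treated libraries above both DPBS libraries in 1 line and below them in another, and these differences were not tested. The share of all genes that do so is not given, so this cannot be read as particular to the 4. With GSK-126, 31.0%, 30.0% and 21.5% of all genes were called higher in HepG2, SNU398 and SNU475, and 21.7%, 22.4% and 28.5% lower. Some changes were small, as for ACTA2 in HepG2 (0.13) and SNU398 (−0.13). The difference in log2 change was −0.53 (SNU398 minus HepG2) and 0.33 (SNU475 minus SNU398) for MYH3. For CAPG it was −0.78 (SNU475 minus HepG2) and −1.04 (SNU475 minus SNU398). For ACTA2 it was −0.25 (SNU398 minus HepG2) and 2.06 (SNU475 minus SNU398). For TPM2 it was −0.69 (SNU398 minus HepG2) and −0.44 (SNU475 minus HepG2).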

How the results depend on the processing

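For the 5 tested genes, 1546 recomputed values kept their direction and side of the threshold, 97 lost and 18 gained the call, and 19 changed sign. Lower calls against DPBS were 1 with no filter on low values, against 3. Lower calls of the combination against a single drug were 1 with limma-voom and 1 with only the libraries of the lines compared, against 0. Leaving out 1 library at a time, where a lone sample is assumed to vary like the other groups, gave 31 to 34 higher and 2 to 4 lower calls against DPBS, 20 to 22 higher and 0 lower against single drugs, 7 to 10 higher and 4 lower interactions, 8 to 9 higher and 6 lower line differences, and 10 higher and 4 lower DPBS differences. Signs changed as follows; the cause was not tested. For SNU475 minus HepG2, CNN1 was −0.52 and TPM2 −0.30 with pseudocount 0.1, and −1.24 and −0.52 with limma-voom, which also gave −0.19 for CNN1 in SNU475 minus SNU398. In SNU398 without scaling, TPM1 was −0.01 with decitabine and −0.07 with GSK-126, CNN1 −0.00 with GSK-126 and TPM2 −0.02 with both drugs. With quantile normalization, CNN1 and TPM1 were both −0.05 with decitabine in SNU398, CNN1 −0.04 with GSK-126 there, and TPM1 −0.01 for both drugs against GSK-126 in SNU475. Over the fits without 1 library, TPM1 with decitabine in SNU398 ranged from −0.01 to 0.02, CNN1 with GSK-126 there from −0.03 to 0.04, TPM2 there from −0.05 to 0.06 with both drugs and from −0.10 to 0.01 for both drugs against decitabine, and ACTA2 for both drugs against decitabine in SNU475 from −0.01 to 0.09. Replicate letters do not pair the libraries (r of deviations −0.12 to 0.24); with the letter as a replicate block there were 33 higher calls against DPBS, 20 against single drugs, 9 higher line differences and 10 higher DPBS differences. Few reads limit CNN1, ACTC1 and NPPB in HepG2 and SNU398.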
